A study of Homo sapiens with 12 samples.

Results

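The 37 genes of the human mitochondrial chromosome were examined, chosen as every gene whose symbol starts with MT-, out of 60617 genes in the files. They comprise 13 protein genes, 2 rRNA genes and 22 tRNA genes. Counts were present for 15 of the 37, the 13 protein genes and both rRNA genes, and all 15 passed the filter on low counts that left 15692 genes for testing. The 22 tRNA genes had a count of 0 in all 12 libraries. They are 59 to 75 bases long, and the quantifier gave each an effective length (the number of positions where a sequenced fragment could start) of 0, so fragments of these libraries could not be assigned to them and a count of 0 says nothing about their level.

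The study compared HCT 116p53-/-, a colorectal cancer cell line of human origin, with uL3ΔHCT 116p53-/- cells, a subline that the study describes as derived from it and stably silenced for the ribosomal protein uL3 (gene RPL3), called RPL3 KO in the labels, although RPL3 was not called lower in it (values below). Each line was treated for 24 h with 5 nM actinomycin D (Act D), a DNA-binding drug that at low dose blocks the synthesis of nuclear ribosomal RNA, or with vehicle. RNA-seq was performed on 3 libraries in each of the 4 groups, HCT 116p53-/- with vehicle, HCT 116p53-/- with Act D, uL3ΔHCT 116p53-/- with vehicle and uL3ΔHCT 116p53-/- with Act D. Both lines share the genotype given in that name, the labels call the libraries biological replicates, and 1 subline was compared with its parental line, so whatever was done to uL3 and any other difference between the 2 lines cannot be told apart.

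Mitochondrial DNA is a small circle that is transcribed from both strands into long precursors, one of which yields nearly all of the mRNAs and both rRNAs. Most genes on it are separated by tRNAs, which are cut out to release the RNAs between them, and the protein genes encode core subunits of respiratory complexes I, III, IV and V, whose other subunits come from the nucleus. Transcription depends on a dedicated polymerase that is different from the nuclear RNA polymerases, and the steady level of each RNA also depends on its own stability.

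The sequences at the borders that matter for reading the counts are shown from the hg38 reference, plus strand. The first pair is shown because the tRNA genes separate the 2 rRNA genes from each other and from MT-ND1, whose levels differed in different ways between the lines. MT-TV lies between MT-RNR1 and MT-RNR2 (chrM:1592-1680), MT-TL1 lies between MT-RNR2 and MT-ND1 (chrM:3220-3314), and capitals mark the tRNA with 10 bases of surrounding sequence on either side.
MT-TV: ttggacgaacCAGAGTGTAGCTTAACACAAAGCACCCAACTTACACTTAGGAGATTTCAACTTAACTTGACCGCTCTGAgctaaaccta
MT-TL1: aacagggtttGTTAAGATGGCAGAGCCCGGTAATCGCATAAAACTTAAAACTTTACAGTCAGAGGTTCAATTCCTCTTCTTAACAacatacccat

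The next stretch (chrM:8517-8582) is shown because MT-ATP8 and MT-ATP6 overlap by 46 bases, in capitals, so that the quantifier had to divide reads lying there between the 2 genes. MT-ND4L and MT-ND4 overlap by 7 bases and MT-ATP6 and MT-CO3 by 1.
MT-ATP8/MT-ATP6: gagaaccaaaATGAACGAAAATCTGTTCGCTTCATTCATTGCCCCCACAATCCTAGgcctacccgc

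The last pair is 80 bases of MT-ND2 (chrM:4879-4958) and of its nuclear copy MTND2P28 (chr1:630049-630128), shown because the copy's counts separated the lines. Capitals mark the 4 bases that differ in this stretch. Over the 1042 bases of MT-ND2 the 2 sequences differ at 17 bases, an identity of 98.4%.
MT-ND2: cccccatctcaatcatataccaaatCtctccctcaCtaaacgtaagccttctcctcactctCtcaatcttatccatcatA
MTND2P28: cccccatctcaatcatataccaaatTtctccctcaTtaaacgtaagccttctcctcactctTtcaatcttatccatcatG

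Library totals ranged from 10087925 to 21138886 expected counts. RPL3, the gene named in the label, was not lower in the libraries labelled uL3Δ. CPM here are counts per 1e6 of the scaled library total. Means with vehicle were 1138 ± 15.3 CPM (SD, n = 3) in HCT 116p53-/- and 1242 ± 82.5 CPM in uL3Δ libraries, and those with Act D were 1127 ± 13.7 against 1224 ± 79.8 CPM. The log2 differences were 0.13 (SE 0.08, adjusted p = 0.155) and 0.12 (SE 0.08, adjusted p = 0.187), and they fell to -0.11 and -0.13 when only the library total was used for scaling. Of 14 colon epithelial markers, 10 averaged over 1 CPM in HCT 116p53-/- vehicle libraries and 7 in uL3Δ vehicle libraries. CDH1, the epithelial cadherin, averaged 66.8 and 0.45 CPM, whereas KRT18, a keratin gene, averaged 605 and 840 CPM. Of 14 mesenchymal markers, 7 and 10 averaged over 1 CPM, with VIM, an intermediate filament gene, at 21.98 and 2237 CPM. COL1A1, a collagen gene, went the other way, at 7.49 and 4.15 CPM. By edgeR with vehicle, 10 of 12 epithelial markers tested were lower and 1 higher in uL3Δ libraries. Of 11 mesenchymal markers tested, 9 were higher and 1 lower. In the fits reported here the lines differed in 71.3% of all genes tested with vehicle and 70.4% with Act D. The p-values below therefore compare libraries labelled uL3Δ with HCT 116p53-/- libraries, and the part of these other differences in them was not tested. Among 40 genes at 20 CPM or more in every uL3Δ library and under 0.3 CPM on average in HCT 116p53-/- vehicle libraries, the HCT 116p53-/- Act D libraries held a median of 0.92% of the uL3Δ Act D level. The same median for the vehicle libraries was 0.41%, which the rule for choosing these genes kept low. The source of these counts was not tested.

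The mitochondrial genes together took a smaller share of the uL3Δ libraries and a larger share of the Act D libraries. Their share of the library total was 8.24%, 7.98% and 9.51% in the HCT 116p53-/- vehicle libraries and 10.7%, 10.5% and 12.1% with Act D. It was 4.57%, 5.48% and 6.28% in the uL3Δ vehicle libraries and 9.83%, 7.10% and 7.71% with Act D. The groups did not overlap within either line or within either treatment. The line difference, averaged over both treatments on the log2 scale, was -0.56 (0.68-fold, exact stratified permutation test, two-sided, p = 0.005, Benjamini-Hochberg adjusted p = 0.02 over 12 such tests), with -0.66 in vehicle and -0.45 in Act D libraries. The Act D difference was 0.48 (1.40-fold, exact permutation p = 0.005, adjusted p = 0.02), with 0.38 in HCT 116p53-/- and 0.59 in uL3Δ libraries. A p of 0.005 is the smallest that this test can give. The difference between the 2 Act D differences was 0.21 (exact permutation p = 0.60, adjusted p = 0.65) and lay between 0.077 and 0.32 without single libraries. For it, treatment labels were shuffled within each line, which assumes no Act D difference in either line. Because both lines had an Act D difference, this p cannot decide whether the lines differ in its size. The share sums genes that differed unequally between the lines. Mean MT-RNR1 was 18247 CPM in HCT 116p53-/- and 5608 CPM in uL3Δ vehicle libraries, and MT-RNR2 was at 54670 and 49141 CPM. With Act D, MT-RNR1 was at 22708 and 9522 CPM and MT-RNR2 at 79120 and 78422 CPM. Of the 15 genes counted, 12 had negative and 3 positive log2 differences with vehicle, and 10 and 5 with Act D. In bulk RNA, fewer mitochondria or mitochondrial genomes per cell and less RNA from each cannot be told apart.

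Other RNA classes also varied over these libraries, and the 18S ranges below overlapped between the lines and between the treatments. The 5 nuclear genes that lie in or copy the 18S rRNA sequence took 0.98% to 4.48% of HCT 116p53-/- vehicle libraries, 3.37% to 5.62% of HCT 116p53-/- Act D libraries, 3.60% to 10.2% of uL3Δ vehicle libraries and 3.89% to 18.2% of uL3Δ Act D libraries. With them left out of the denominator, the line difference in the mitochondrial share was -0.46 and the Act D difference 0.54, both at an exact permutation adjusted p of 0.02. With nuclear protein-coding genes alone as the denominator the values were -0.45 and 0.59, again at an adjusted p of 0.02 by the exact permutation test. The 13 protein genes alone over that denominator gave a line difference of -0.32 that did not pass the threshold (exact permutation adjusted p = 0.156). The 5 small RNAs without poly(A) tails (RN7SL1, RN7SL2, RN7SK, RPPH1 and RMRP) together took 7.45% to 9.62% of HCT 116p53-/- libraries and 9.39% to 13.7% of uL3Δ libraries, and their part in the line difference was not tested.

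**Figure D1:**
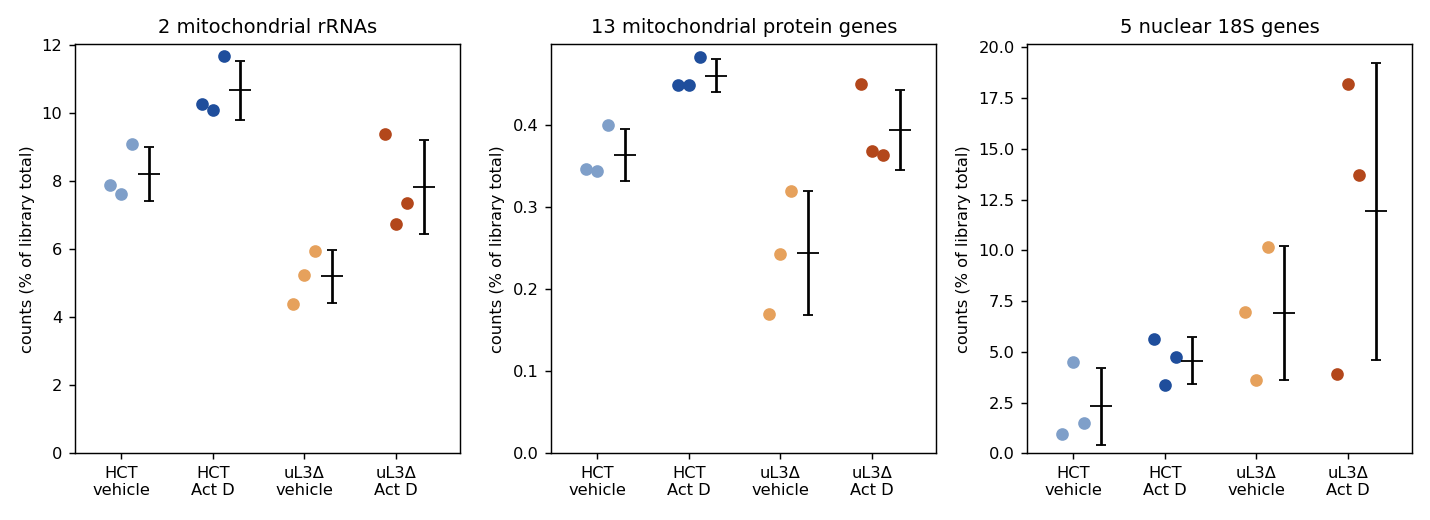
Counts as a percent of the library total for the 2 mitochondrial rRNAs, the 13 mitochondrial protein genes and the 5 nuclear 18S genes (points are the 3 libraries of each group, the bar is the mean ± SD). The mitochondrial rRNA share lies between 4.40% and 5.96% in uL3Δ vehicle libraries and between 10.1% and 11.7% in HCT 116p53-/- Act D libraries, and 2 uL3Δ Act D libraries stand apart in the 18S share.

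Nearly all mitochondrial counts belonged to the 2 rRNAs, which form the core of the mitochondrial ribosome. Their share of the mitochondrial counts was 94.8% to 96.3% over the 12 libraries. It did not pass the threshold for line (exact permutation adjusted p = 0.22), for Act D (adjusted p = 0.65) or for the difference between the Act D differences (adjusted p = 0.48). The line p fell to 0.02 without uL3Δ vehicle replicate 1, and the last to 0.048 without uL3Δ vehicle replicate 3. The study's methods state that reads mapping to ribosomal RNA were removed before quantification, and whether the mitochondrial rRNAs were among the sequences filtered is not given in the sources used here. The 13 protein genes took 0.17% to 0.48% of the library.

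Levels were compared between genes per length, and on the scale of CPM per kb of effective length the 15 genes spanned over 3 orders of magnitude. How evenly the library preparation captured the different RNAs was not tested, so these values are not measures of the number of molecules. Over the 12 libraries MT-RNR2, the large rRNA, averaged 46946, and MT-RNR1, the small rRNA, averaged 17778. The subunits of cytochrome c oxidase (complex IV) led the protein genes, with MT-CO3 at 1203, MT-CO2 at 901 and MT-CO1 at 723 CPM per kb. MT-ATP8, MT-ND3, MT-ND4L and MT-ATP6 averaged 399 to 535. MT-ND2, MT-ND1 and MT-ND4 averaged 265 to 289, and the gaps between these neighbours were within the largest of their group SDs. MT-CYB averaged 139, MT-ND5 92.7 and MT-ND6, the only protein gene of the other strand, 12.6 CPM per kb. The values for MT-ATP8 rest on an effective length that is a small part of its 207 bases.

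**Figure D2:**
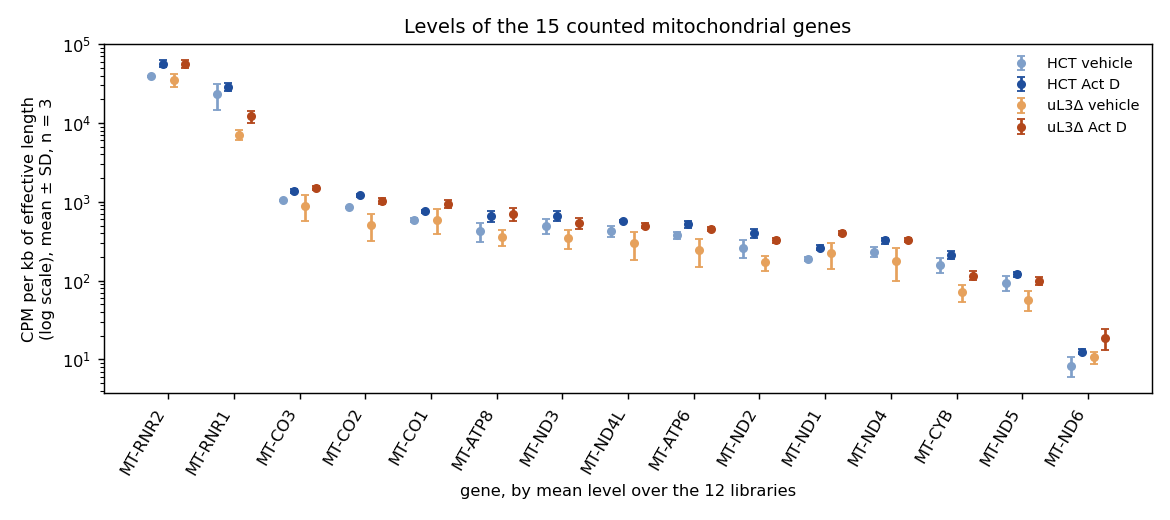
Level of each of the 15 counted mitochondrial genes in CPM per kb of effective length (log axis), as mean ± SD over 3 libraries for each of the 4 groups, ordered by the mean over the 12 libraries. The rRNAs sit above all protein genes, from MT-CO3 at an overall mean of 1203 down to MT-ND6 at 12.6.

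With vehicle, 8 of the 15 genes were lower in uL3Δ than in HCT 116p53-/- libraries and none were higher, and the median log2 difference was -0.55 beside -0.02 over all genes tested. Of all genes tested, 71.3% were called in this comparison and 36.2% were called lower, beside 53.3% of the 15, all of them lower. The genes that passed were MT-RNR1, MT-CYB, MT-CO2, MT-ND5, MT-ATP6, MT-ND2, MT-ND4L and MT-ND3, with log2 differences from -1.70 to -0.55. The other 7 had log2 differences between -0.38 and 0.35. The libraries of the lines did not overlap for 5 of the 15, all lower in uL3Δ, as against 72.5% of all genes. With Act D, MT-RNR1 and MT-CYB were lower and MT-ND1 was higher, 3 of 15, where 70.4% of all genes were called. The median of the 15 was -0.22 beside -0.02. The libraries did not overlap for 11 of the 15, 8 lower and 3 higher in uL3Δ, as against 74.1% of all genes. With the library total alone as scaling, which moved the median of all genes to -0.26 in both line comparisons, 12 genes were lower with vehicle and 8 were lower and 1 higher with Act D.

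MT-RNR1 (chrM:648-1601), the small subunit rRNA, differed most between the lines. It was at 13817, 15012 and 25911 CPM in HCT 116p53-/- vehicle libraries and at 5112, 5278 and 6435 CPM in uL3Δ vehicle libraries. With Act D it was at 21058, 21192 and 25874 CPM against 9312, 7927 and 11326 CPM. The lines did not overlap with either treatment, and HCT 116p53-/- vehicle replicate 3 stood above the other 2 of its group. The log2 difference was -1.70 (SE 0.19, edgeR adjusted p = 3.5e-07) with vehicle and -1.25 (SE 0.19, edgeR adjusted p = 1.3e-05) with Act D. Without HCT 116p53-/- vehicle replicate 3 the first was -1.37 (edgeR adjusted p = 1.2e-07). MT-RNR2 (chrM:1671-3229), which follows it on the same precursor, was at 55014, 54803 and 54193 CPM against 39547, 50141 and 57734 CPM with vehicle, and the lines overlapped. Its log2 difference was -0.15 (SE 0.13, edgeR adjusted p = 0.28) with vehicle and -0.01 (SE 0.13, edgeR adjusted p = 0.93) with Act D.

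The ratio of MT-RNR1 to MT-RNR2 counts, which does not depend on the scaling of the library, was 0.251, 0.274 and 0.478 in HCT 116p53-/- vehicle libraries and 0.275, 0.292 and 0.294 with Act D. It was 0.129, 0.105 and 0.111 in uL3Δ vehicle libraries and 0.105, 0.111 and 0.152 with Act D. All 6 uL3Δ libraries lay below all 6 HCT 116p53-/- libraries, whereas vehicle and Act D libraries overlapped in both lines. This ratio was chosen after its values were seen and is given with no test.

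MT-CYB (chrM:14747-15887) encodes cytochrome b, the only mitochondrial subunit of complex III. It was at 134, 136 and 194 CPM in HCT 116p53-/- vehicle libraries and at 56.1, 64.1 and 87.6 CPM in uL3Δ vehicle libraries. With Act D it was at 197, 192 and 233 CPM against 107, 129 and 101 CPM. The lines did not overlap with either treatment. The log2 difference was -1.16 (SE 0.16, edgeR adjusted p = 3.7e-06) with vehicle and -0.89 (SE 0.16, edgeR adjusted p = 7.1e-05) with Act D, and both held under every alternative run.

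Of the complex I subunits, MT-ND1 (chrM:3307-4262) was the only one called higher in uL3Δ libraries. It was at 139, 151 and 159 CPM in HCT 116p53-/- vehicle libraries and at 124, 156 and 243 CPM in uL3Δ vehicle libraries, which overlapped. With Act D it was at 195, 200 and 224 CPM against 337, 312 and 304 CPM, and the uL3Δ libraries were all above. The log2 difference was 0.22 (SE 0.16, edgeR adjusted p = 0.23) with vehicle and 0.62 (SE 0.16, edgeR adjusted p = 0.0021) with Act D. MT-ND2 (chrM:4470-5511), MT-ND3, MT-ND4L and MT-ND5 were lower with vehicle by edgeR, with log2 differences of -0.61, -0.55, -0.55 and -0.71, and lay between -0.36 and -0.27 with Act D, where none passed. The MT-ND4L call was lost without HCT 116p53-/- vehicle replicate 3. MT-ND4 did not pass with either treatment. MT-ND6 had positive log2 differences of 0.35 (SE 0.25, edgeR adjusted p = 0.23) with vehicle and 0.53 (SE 0.24, edgeR adjusted p = 0.064) with Act D.

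Of the complex IV subunits, MT-CO2 was lower with vehicle, at 437, 443 and 446 CPM in HCT 116p53-/- libraries and 162, 276 and 347 CPM in uL3Δ libraries (log2 difference -0.76, SE 0.17, edgeR adjusted p = 6.8e-04). MT-CO1 and MT-CO3 had log2 differences of 0.02 and -0.24 with vehicle and 0.31 and 0.12 with Act D, and none passed. Of the complex V subunits, MT-ATP6 was lower with vehicle (log2 difference -0.63, SE 0.18, edgeR adjusted p = 0.0046), although the libraries of the lines overlapped, and MT-ATP8 was not called at -0.35.

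Because a lower total could hide which genes differ, each protein gene was also expressed as a percent of the counts of the 13 protein genes in its library. MT-CO1 held 25.01% ± 0.36 (SD, n = 3) in HCT 116p53-/- vehicle libraries and 31.6% ± 0.26 in uL3Δ vehicle libraries, and 23.9% ± 0.46 against 29.2% ± 1.66 with Act D. MT-ND1 held 4.63% ± 0.15 against 6.77% ± 0.59 with vehicle and 4.70% ± 0.12 against 7.15% ± 0.02 with Act D. Both were higher in every uL3Δ library than in any HCT 116p53-/- library of the same treatment. MT-CYB held 4.75% ± 0.66 against 2.77% ± 0.43 with vehicle and 4.72% ± 0.20 against 2.53% ± 0.38 with Act D. MT-CO2 held 13.7% ± 0.95 against 10.1% ± 0.69 and 14.4% ± 0.22 against 11.9% ± 1.02. These 2 genes, and MT-ATP6, MT-ND5 and MT-ND4L, held a smaller percent in every uL3Δ library of the same treatment. These percents were described with no test, and they sum to 100 within a library, so they do not vary independently.

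**Figure D3:**
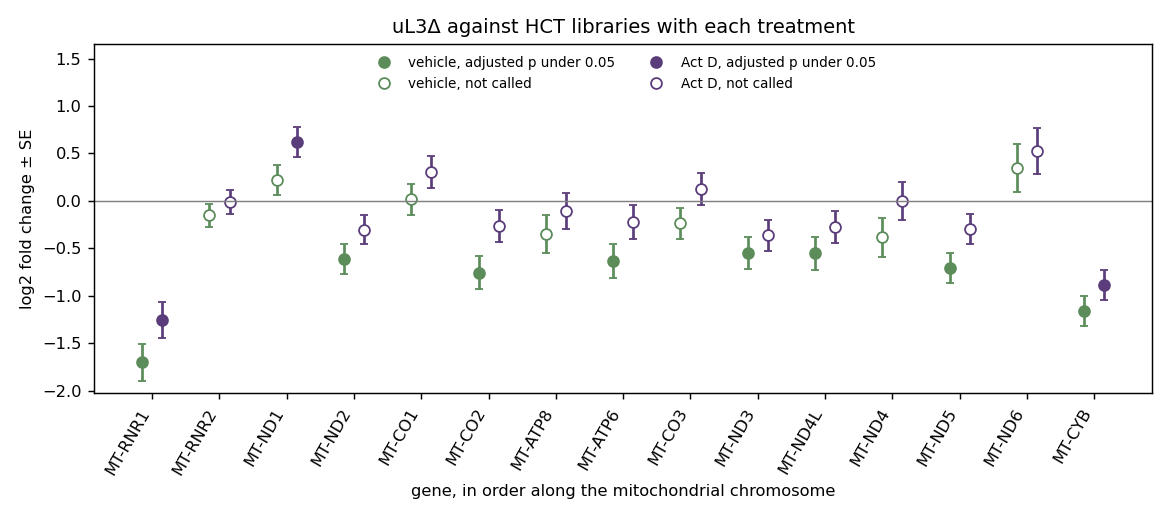
Log2 difference ± SE between uL3Δ and HCT 116p53-/- libraries for each mitochondrial gene in chromosome order, with vehicle (green) and with Act D (purple), filled where the edgeR adjusted p is under 0.05. MT-RNR1 and MT-CYB lie lowest with both treatments, at -1.70 and -1.16 with vehicle, and MT-ND1 is the only gene called higher, at 0.62 with Act D.

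**Figure D4:**
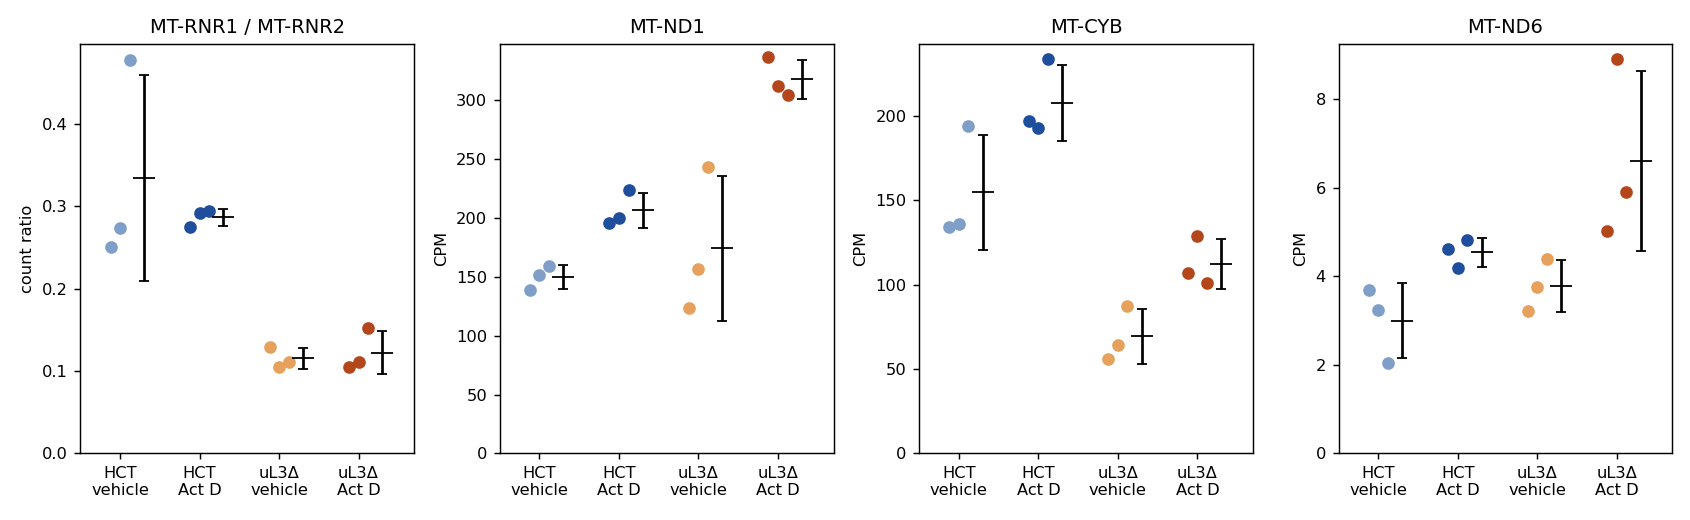
Ratio of MT-RNR1 to MT-RNR2 counts and CPM of MT-ND1, MT-CYB and MT-ND6 (points are the 3 libraries of each group, the bar is the mean ± SD, all axes start at 0). The ratio lies at 0.251 or above in HCT 116p53-/- libraries and at 0.152 or below in uL3Δ libraries.

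Act D was followed by higher levels of mitochondrial genes in both lines. In HCT 116p53-/- libraries 4 of the 15 were called, all higher, with 18.7% of all genes called and 7.59% called higher. The median log2 difference of the 15 was 0.46 beside 0.02 over all genes, and all 15 were positive, from 0.32 to 0.62. All Act D libraries lay above all vehicle libraries for 11 of the 15, as against 18.2% of all genes. The 4 were MT-RNR2 (0.53, SE 0.13, edgeR adjusted p = 0.0064), MT-ND2 (0.62, SE 0.16, adjusted p = 0.0092), MT-ATP8 (0.62, SE 0.19, adjusted p = 0.033) and MT-CO2 (0.52, SE 0.17, adjusted p = 0.041). The call for MT-RNR2 held under all 16 alternatives and that for MT-CO2 under 8 of 16. The number called moved to 1 without vehicle replicate 1 or 2 of HCT 116p53-/-, to 7 without vehicle replicate 3 and to 2 without Act D replicate 2. It was 13 when only the 2 groups compared were fitted and 14 with no filter on low counts.

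In uL3Δ libraries all 15 were called higher with Act D, where 11.9% of all genes were called and 3.51% were called higher. The log2 differences ran from 0.62 for MT-ND3 to 1.01 for MT-CO2, with a median of 0.78 beside 0.03 over all genes. MT-CO2 was at 162, 276 and 347 CPM with vehicle and 551, 479 and 553 CPM with Act D (log2 difference 1.01, SE 0.17, edgeR adjusted p = 7.0e-04). MT-ND2 followed, at 124, 139 and 183 CPM against 262, 290 and 300 CPM (log2 difference 0.93, SE 0.16, edgeR adjusted p = 7.0e-04). MT-RNR2 was at 39547, 50141 and 57734 CPM against 89021, 71673 and 74572 CPM (log2 difference 0.67, SE 0.13, edgeR adjusted p = 0.0017). MT-RNR1 rose by 0.76 (SE 0.19, edgeR adjusted p = 0.012), a call lost without Act D replicate 3. For all 15 genes each Act D library lay above each vehicle library, as did 12.8% of all genes tested. The call for MT-ND6 was the least stable, held under 6 of 16 alternatives.

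The Act D difference itself did not pass the test of a difference between the lines for any mitochondrial gene. The edgeR interaction test called 0 of 15, with 0 at an unadjusted p under 0.05 and 0 by DESeq2, where 6.53% of all genes were called. The interaction estimates were all positive, from 0.14 for MT-RNR2 to 0.50 for MT-CO2 (SE 0.24, edgeR adjusted p = 0.24). Without uL3Δ vehicle replicate 3, whose mitochondrial share was the highest of its group, 4 genes were called, MT-ND1, MT-CO2, MT-ATP6 and MT-ND4, at 0.71 to 0.76. Both Act D comparisons and both line comparisons share the same 4 groups of libraries.

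**Figure D5:**
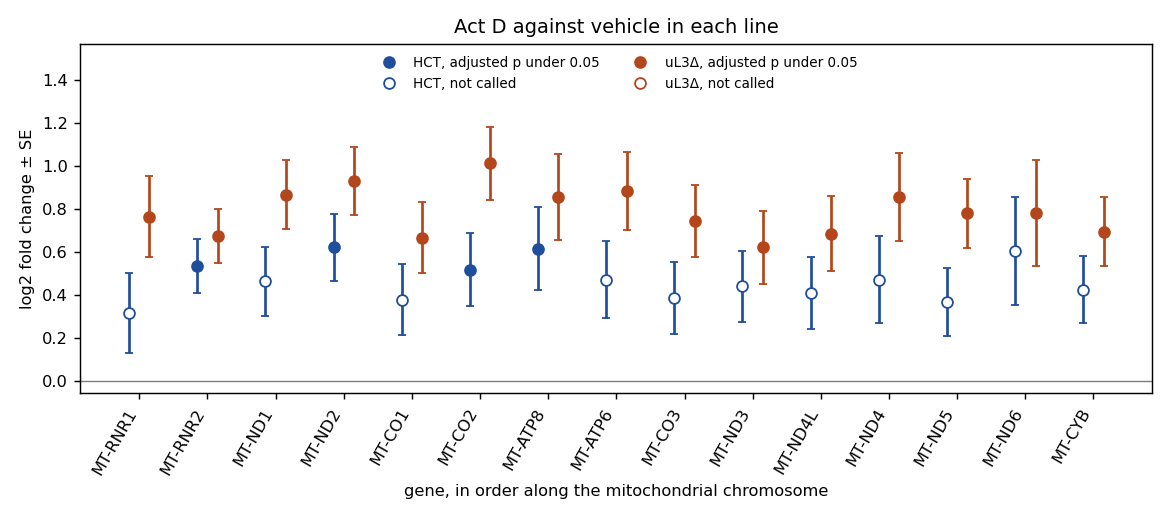
Log2 difference ± SE between Act D and vehicle libraries for each mitochondrial gene in chromosome order, in HCT 116p53-/- (blue) and uL3Δ (red) libraries, filled where the edgeR adjusted p is under 0.05. All 30 values lie above 0, from 0.32 to 1.01, with 4 of 15 filled in HCT 116p53-/- and 15 of 15 in uL3Δ.

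MT-ND6 (chrM:14149-14673), a complex I subunit, is read from the strand opposite to the other 12 protein genes. Its counts were low, 34 to 78 a library. As a percent of the counts of the 13 protein genes it was 0.122%, 0.103% and 0.0582% in HCT 116p53-/- vehicle libraries, 0.108%, 0.1004% and 0.102% with Act D, 0.187%, 0.146% and 0.127% in uL3Δ vehicle libraries and 0.106%, 0.205% and 0.139% in uL3Δ Act D libraries. The lines did not overlap with vehicle and did with Act D. The line difference was 0.62 on the log2 scale (exact stratified permutation p = 0.01, adjusted p = 0.024), and the adjusted p lay between 0.06 and 0.072 without HCT 116p53-/- vehicle replicate 3 (log2 difference 0.46), HCT 116p53-/- Act D replicate 2 or 3, or any of the 3 uL3Δ vehicle replicates. The Act D difference was 0.07 (exact permutation adjusted p = 0.805). The strand setting of the quantification is not given in the sources used here, so reads from MT-ND6 and from the antisense strand of the same stretch cannot be told apart.

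The nuclear partners of the mitochondrial subunits mostly differed between the lines in the other direction. Of 74 nuclear subunits of complexes I, III, IV and V, 49 were higher and 9 lower in uL3Δ libraries with vehicle, a median log2 difference of 0.53 beside -0.02 over all genes, and 44 were higher and 11 lower with Act D. These are 78.4% and 74.3% called, beside 71.3% and 70.4% of all genes. Called higher were 66.2% and 59.5% of the 74, beside 5501 and 5503 of the 15692 genes tested. Act D changed 5 of the 74 in HCT 116p53-/- libraries (6.76%) and 1 in uL3Δ libraries (1.35%), all higher. Of all genes, 18.7% and 11.9% were called, and 7.59% and 3.51% were called higher. The median log2 differences of the 74 were 0.14 and 0.04, beside 0.02 and 0.03 over all genes. Their summed level went from 6423 to 7051 CPM with vehicle to 7409 to 7690 CPM with Act D in HCT 116p53-/- libraries. In uL3Δ libraries the sums overlapped. Counts of the 13 mitochondrial protein genes were 42.9%, 45.3% and 54.9% of the counts of the 74 nuclear subunits in HCT 116p53-/- vehicle libraries and 55.6%, 54.5% and 63.7% with Act D. They were 18.7%, 24.9% and 36.995% in uL3Δ vehicle libraries and 47.4%, 46.3% and 41.4% with Act D. Every uL3Δ library lay below every HCT 116p53-/- library of the same treatment. The line difference of this ratio was -0.62 on the log2 scale (0.65-fold, exact stratified permutation p = 0.005, adjusted p = 0.02), and its adjusted p was 0.072 without HCT 116p53-/- vehicle replicate 3. The Act D difference was 0.54 (1.46-fold, exact permutation p = 0.01, adjusted p = 0.024), with adjusted p between 0.072 and 0.084 without any 1 of the uL3Δ Act D replicates. The difference between the Act D differences was 0.52 (exact permutation adjusted p = 0.48) and lay between 0.28 and 0.77 without single libraries. As for the mitochondrial share, the shuffling assumes no Act D difference in either line, so this p cannot decide whether the lines differ.

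Nuclear genes of mitochondrial RNA and DNA upkeep moved in both directions. Of 71 genes for transcription, RNA cleavage, polyadenylation and decay, modification, DNA maintenance and biogenesis, 22 were higher and 28 lower in uL3Δ libraries with vehicle (median -0.11 beside -0.02), and 19 were higher and 32 lower with Act D (median -0.23 beside -0.02). The shares called, 70.4% and 71.8%, lay near those of all genes, 71.3% and 70.4%. Act D raised 8 and lowered 9 in HCT 116p53-/- libraries and raised 2 and lowered 6 in uL3Δ libraries, with medians of 0.01 and -0.07. The shares called, 23.9% and 11.3%, stood beside 18.7% and 11.9% of all genes. The lists within the 71 are given as counts, with no reading against this background. Of the 10 transcription genes, 3 were higher and 3 lower between the lines with vehicle. Of these 10, Act D raised 1 and lowered 1 in HCT 116p53-/- libraries and changed 0 in uL3Δ libraries by edgeR. Of the 8 genes for polyadenylation, stability and decay, 6 were higher and 2 lower in uL3Δ vehicle libraries, and of 13 RNA cleavage genes 3 were higher and 6 lower. Of 19 RNA modification genes 3 were higher and 9 lower, and of 14 DNA maintenance genes 3 were higher and 7 lower. Of 7 regulators of mitochondrial biogenesis, Act D lowered 2 in HCT 116p53-/- and 4 in uL3Δ libraries. Beside these counts, 5501 of all 15692 genes were called higher and 5684 lower in uL3Δ vehicle libraries. Act D raised 1191 and lowered 1748 of the 15692 in HCT 116p53-/- libraries, and raised 551 and lowered 1318 in uL3Δ libraries.

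Among machinery genes with a mean of at least 5 CPM in either group, the 3 with the largest difference between the lines with vehicle were lower in uL3Δ libraries. PPARGC1A, which encodes a coactivator of mitochondrial biogenesis, lay below that level, at 0.23 ± 0.20 CPM in HCT 116p53-/- and 4.76 ± 1.35 CPM in uL3Δ libraries, and was higher (log2 difference 4.29, SE 0.43, edgeR adjusted p = 7.0e-08). MRM1, a ribose methyltransferase of the large mitochondrial rRNA, averaged 13.4 ± 1.59 CPM in HCT 116p53-/- and 4.11 ± 2.02 CPM in uL3Δ libraries, with the SD over 3 libraries (log2 difference -1.74, SE 0.24, edgeR adjusted p = 3.1e-06). RRM2B, a ribonucleotide reductase subunit that supplies nucleotides for mitochondrial DNA, was at 65.6 ± 1.63 against 19.7 ± 1.41 CPM (log2 difference -1.73, edgeR adjusted p = 4.1e-12). MTERF3, a regulator of mitochondrial transcription and ribosome assembly, was at 44.8 ± 2.22 against 14.5 ± 2.01 CPM (log2 difference -1.62, edgeR adjusted p = 2.7e-09).

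With Act D, PPARGC1A was at 0.22 ± 0.13 CPM in HCT 116p53-/- and 5.27 ± 0.81 CPM in uL3Δ libraries (log2 difference 4.47, SE 0.44, edgeR adjusted p = 6.7e-08). RRM2B was lower by the same test (log2 difference -1.83), as was PDE12, an enzyme that shortens poly(A) tails of mitochondrial RNA, at 115 ± 3.25 against 38.1 ± 3.52 CPM (log2 difference -1.60, edgeR adjusted p = 1.2e-11).

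Act D lowered PPARGC1B, a coactivator related to PPARGC1A, in both lines, from 29.0 ± 3.13 to 12.8 ± 0.30 CPM in HCT 116p53-/- libraries (log2 difference -1.18, edgeR adjusted p = 1.2e-04) and from 27.1 ± 8.69 to 10.8 ± 1.58 CPM in uL3Δ libraries (log2 difference -1.30, edgeR adjusted p = 1.6e-04). MRPL12, a mitochondrial ribosomal protein that also binds the mitochondrial RNA polymerase, was lower with Act D by edgeR in HCT 116p53-/- libraries (log2 difference -0.93, adjusted p = 0.0061) and was at -0.32 in uL3Δ libraries (edgeR adjusted p = 0.41). TRMT61B, a methyltransferase of mitochondrial RNAs, was lower in HCT 116p53-/- libraries (-0.90, edgeR adjusted p = 4.0e-04) and was at -0.41 in uL3Δ libraries (edgeR adjusted p = 0.089). NRF1, a transcription factor for nuclear genes of mitochondrial proteins, fell in both lines, from 22.3 ± 2.47 to 14.7 ± 1.40 CPM in HCT 116p53-/- libraries (-0.61, edgeR adjusted p = 0.0024) and from 20.3 ± 1.90 to 10.1 ± 1.46 CPM in uL3Δ libraries (-1.004, edgeR adjusted p = 1.1e-04). TRMT5, a tRNA methyltransferase, rose in both lines, by 0.46 in HCT 116p53-/- (edgeR adjusted p = 0.0031) and 0.50 in uL3Δ libraries (edgeR adjusted p = 0.0043). The edgeR interaction test called none of MRPL12, TRMT61B, NRF1 and TRMT5, with adjusted p from 0.19 to 0.93.

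Copies of mitochondrial genes in nuclear DNA share sequence with the members and could take up their reads. Of 404 such pseudogene symbols, 10 held 10 or more counts over the 12 libraries. MTATP6P1, a copy of MT-ATP6 on chromosome 1, held 198 to 515 counts a library. MTND2P28, the copy of MT-ND2 printed above, held 115, 101 and 168 counts in HCT 116p53-/- vehicle libraries, 135, 145 and 136 with Act D, and 0 in all 6 uL3Δ libraries, where a count of 0 allows up to 3 counts a library. These counts were chosen for description after their values were seen. With pseudogene counts added to the parent genes, the numbers of mitochondrial genes called were the same as without them in all 5 comparisons. The quantifier's posterior SD of a member's count was at most 0.47% of the count.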

How the data were processed

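Total RNA of 12 cultures was sequenced as paired-end TruSeq RNA libraries. Per the study's methods, the authors trimmed the reads, removed reads mapping to contaminants such as ribosomal RNA, and quantified Ensembl genes on hg38 with RSEM 1.2.25. The deposited values used here are the expected counts of RSEM, with the effective lengths, and their strand setting is not given in the sources used here. For 11 libraries the deposited table was by gene; for HCT 116p53-/- vehicle replicate 2 it was by transcript, and its 226788 transcripts were summed to genes. Of the gene identifiers, 60261 matched GENCODE 44 for symbols and positions.

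Samples were grouped by their labels. Expected counts were rounded, filtered with filterByExpr, scaled by TMM (factors 0.847 to 1.15) and tested with edgeR 4.0.16 quasi-likelihood fits over all 12 libraries in R 4.3.3, with Benjamini-Hochberg adjustment over 15692 genes and calls at adjusted p under 0.05. No gene's p was adjusted over the mitochondrial genes alone. Single values per library were tested by exact permutation within strata (400 arrangements, 12 tests adjusted together). In simulated data with 2-fold changes, the edgeR fit recovered 73.2% of 198 changed genes in the vehicle line comparison over 15346 genes, with 6 false calls. In the data themselves 71.3% of genes were called in that comparison, a setting that the simulation did not cover. No 2 libraries of the same group agreed within sampling noise, and pairs from different groups were not checked. Alternatives were DESeq2 1.42.0, other scalings and filters, a replicate block, pseudogene counts added, single libraries left out and, chosen after seeing the data, tables without 18S genes or limited to protein-coding genes. The members and gene lists were chosen with earlier results of these data known. A further gene that was part of the label check is not reported here. Named machinery genes are the 3 per comparison with the largest log2 difference at adjusted p under 0.05 and at least 5 CPM in a group. Figures were drawn with matplotlib 3.10.9.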

Additional observations from a re-analysis of the deposited data

How the results depend on the processing

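The line and Act D differences in the mitochondrial share kept their sign under every alternative, with log2 values of -0.62 to -0.50 and 0.42 to 0.54 when single libraries were left out. The depth limits mainly MT-ND6, with under 100 counts a library. Of 16 alternatives, the count of genes changed was within 1.5 times the reported one throughout for the line with vehicle (7 to 12 of 15) and for Act D in uL3Δ (12 to 15).

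For the line with Act D, the count of 3 became 9 with the library total alone, 10 with no filter on low counts and 10 with only the groups compared. For Act D in HCT 116p53-/-, the count of 4 became 2, 14 and 13 under the same 3 alternatives, and it ranged from 1 to 7 without single libraries. For the interaction, the count of 0 became 2 with no filter, and ranged from 0 to 4 without single libraries. Those fits differed from the reported one in the scaling, the genes or the libraries used, and the cause of these shifts was not tested.

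Replicate numbers came from the titles, which run from 1 to 3 in each group, whereas GEO's description field counts the uL3Δ Act D libraries from 4 to 6. The pairing check and the block rest on the titles. Those numbers did not pair the samples: same-numbered deviations from the group means correlated between -0.10 and 0.10. With the replicate block, the number of genes changed was 9 for the line with vehicle, 4 for the line with Act D, 6 for Act D in HCT 116p53-/-, 14 for Act D in uL3Δ and 0 for the interaction. The block permutation cannot give a p under 0.031, and its values, the same differences, had exact permutation adjusted p of 0.0938 for the mitochondrial share by line (-0.56) and by Act D (0.48) and for the subunit ratio by line (-0.62) and by Act D (0.54), and of 0.15 for the MT-ND6 share by line (0.62).

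The line difference of the protein genes over nuclear protein-coding genes was -0.32 and not called. Without single libraries, the rRNA share ranged from -0.0091 to -0.0038 by line, from -0.0049 to 0.00032 by Act D and from -0.013 to -0.0026 in the interaction, the MT-ND6 share from 0.46 to 0.73 by line, from -0.090 to 0.18 by Act D and from -0.52 to 0.048 in the interaction, and the subunit ratio from -0.75 to -0.50 by line and from 0.43 to 0.67 by Act D, with calls lost as given above.

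Among single genes, none that was called changed sign. Of those not called, some did. For the line with vehicle, MT-CO1 moved to -0.23 with the library total alone, -0.013 with upper-quartile factors and -0.0058 with the replicate block, and ranged from -0.25 to 0.25 without single libraries. MT-ND1 moved to -0.028 with the library total alone and ranged from -0.091 to 0.42 without single libraries, where MT-CO3 ranged from -0.48 to 0.016. For the line with Act D, MT-CO3 moved to -0.12 with the library total alone. MT-RNR2 moved to 0.0069 with protein-coding and mitochondrial genes only and ranged from -0.11 to 0.033 without single libraries. MT-ND4, with a fitted value near 0, moved to -0.24 with the library total alone, -0.0019 with upper-quartile factors, -0.032 with nuclear scaling, -0.00117 with DESeq2, -0.031 with no filter, -0.00104 with pseudogenes added and -0.0089 without the 18S genes, and ranged from -0.058 to 0.037 without single libraries. In the interaction, MT-ND6 ranged from -0.12 to 0.39 and MT-ATP8 from -0.028 to 0.43 without single libraries. RPL3 moved to -0.11 and -0.13 with the library total alone. The humanin-like copies of MT-RNR2 could not be added to it, because their symbols were not matched to identifiers here.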
